A study of Mus musculus with 6 samples.

Results

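YTH domain proteins read N6-methyladenosine (m6A), the most common internal methylation of mRNA. The mouse genome carries 5 genes of the family, Ythdc1, Ythdc2, Ythdf1, Ythdf2 and Ythdf3, and all 5 were found by gene name among the 54532 genes of the deposited table. They were chosen by family membership and not by measured values, with earlier results on these libraries known. The bKO libraries were 3 from islets of Ythdc1-βKO mice, in which Ythdc1 is deleted in beta cells, and the control libraries were 3 from Ythdc1flox/flox mice, whose Ythdc1 alleles are floxed. Mice of both genotypes were 7 weeks old, and each library held poly(A)-selected RNA of whole islets. What drives the deletion, which exons lie between the loxP sites and how many mice stand behind a library is not stated in the labels. They describe the replicates as independent and biological. The comparison asks whether the 4 paralogs of Ythdc1 change in islets whose beta cells carry its deletion, and by how much Ythdc1 itself is lowered.

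The YTH domain holds the methylated adenosine in a pocket lined by aromatic residues. YTHDC1 is the nuclear reader and acts in splicing, 3' end processing, export and chromatin-linked silencing. YTHDF1, YTHDF2 and YTHDF3 are cytoplasmic and close in sequence, and YTHDF2 is best known for recruiting the CCR4-NOT deadenylase to methylated mRNA. YTHDC2 is an RNA helicase with a YTH domain, best known for its role in the entry of mouse germ cells into meiosis.

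In bKO islets the mRNA of Ythdc1 was lower by 37.6%, and no change was called for its 4 paralogs. With limma and an adjusted p under 0.05, 1 of the 5 genes was called, against a background of 20.3% of all 15717 tested genes called in either direction, 8.96% called higher and 11.4% called lower. The unadjusted limma p of the 4 paralogs ran from 0.60 to 0.86, and voom on recovered reads called 0 of them. All 5 genes passed the filter on low values in both groups. With 1 library left out, the whole-table count of 3192 called genes was 1916, 2117 and 2174 without bKO replicates 1, 2 and 3, and 1904, 2360 and 2783 without control replicates 1, 2 and 3.

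The libraries held 16863329 to 18240339 reads each. These were recovered as whole numbers from the deposited FPKM, which count fragments per kilobase of a gene and are set to a common scale between libraries. Marker lists of the islet and its neighbours were checked as sums of FPKM, which the genes of highest level dominate. The counts of called markers stand beside 8.96% of all tested genes called higher and 11.4% called lower. The 8 beta-cell markers summed to between 130927 and 140038 FPKM in bKO and between 201005 and 222730 FPKM in control, with 5 members lower and 1 higher. Most of this sum came from Ins2 and Ins1, with means of 84753.5 and 34528.6 FPKM in bKO and 134303 and 61085.1 FPKM in control. The 1 higher was Ucn3, and Iapp and Pdx1 were not called (limma adjusted p = 0.16 and 0.34). The 5 alpha-cell markers summed to 16772 to 20067 FPKM in bKO and 18420 to 22396 FPKM in control (1 higher, 0 lower), and the 4 delta- and PP-cell markers to 16229 to 19274 FPKM in bKO and 9796 to 11985 FPKM in control (2 higher, 0 lower). The 2 higher were Ppy and Pyy. The delta-cell genes Sst and Hhex were not called (limma adjusted p = 0.16 and 0.052), though all 4 were called higher after scaling by read totals. With acinar and hormone genes left out of these totals, Sst was not called and Hhex was. The 7 macrophage markers were lower as a sum, 64.2 to 80.3 FPKM in bKO and 105.6 to 120.3 FPKM in control (3 lower, 0 higher), and the 6 endothelial markers higher, 180.3 to 183.9 FPKM in bKO and 138.3 to 161.4 FPKM in control (4 higher, 0 lower). Acinar markers summed to 101.8 to 145.1 FPKM in bKO and 50.2 to 169.3 FPKM in control, and duct markers to 12.4 to 13.7 FPKM in bKO and 11.3 to 12.3 FPKM in control, with 0 members of either called. The 5 mesenchymal markers summed to 48.2 to 51.1 FPKM in bKO and 48.9 to 51.9 FPKM in control (1 higher, 0 lower). The 1 called was the pericyte receptor gene Pdgfrb, at 5.17 ± 0.38 FPKM in bKO and 3.85 ± 0.096 FPKM in control (SD, n = 3 each, limma adjusted p = 0.012), while Rgs5, at 36.8 FPKM in bKO and 39.7 FPKM in control, made up most of the sum. No marker was at 0 in all libraries. The part of cell makeup in the results on the YTH genes was not tested, and in bulk RNA fewer cells of a type and less RNA per cell cannot be told apart.

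Reads of related genes can be assigned to the wrong one, so the coding sequences of the family were compared first. Between any pair of the 5 genes, the longest identical stretch of coding sequence ran from 11 to 22 bases, against sequenced read ends of 150 bases. The longest, 22 bases, was shared by Ythdf1 and Ythdf2. Over aligned coding bases, Ythdf1 was 69.1% identical to Ythdf2 and 70.4% identical to Ythdf3, and Ythdf2 was 70.9% identical to Ythdf3. The 90 bases in which the 3 Ythdf genes are most alike lie at the start of the part that codes for the YTH domain. They are shown for this likeness, while the assignment of reads was not tested and untranslated parts were not compared. Capitals mark the 23 positions at which the 3 genes do not all carry the same base, and the other 67 positions are identical.
Ythdf1: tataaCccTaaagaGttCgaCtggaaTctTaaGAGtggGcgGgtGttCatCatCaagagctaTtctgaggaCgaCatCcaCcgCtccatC
Ythdf2: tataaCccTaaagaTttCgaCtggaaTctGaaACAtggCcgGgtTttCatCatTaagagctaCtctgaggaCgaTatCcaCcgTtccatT
Ythdf3: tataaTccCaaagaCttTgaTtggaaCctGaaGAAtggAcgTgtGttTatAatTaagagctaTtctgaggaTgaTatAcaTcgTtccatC

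These stretches come from GENCODE vM21 transcripts on GRCm38, the build of the table, and are written 5′ to 3′ on the coding strand. That of Ythdf1 is at chr2:180911122-180911211 on the minus strand in exon 5, that of Ythdf2 at chr4:132204567-132204656 on the minus strand in exon 4, and that of Ythdf3 at chr3:16204900-16204989 on the plus strand in exon 5. Ythdf1 and Ythdf2 differ at 12 of the 90 bases, and Ythdf3 differs from each of them at 18. No pseudogene with YTH in its description was among the genes of the table. Of the 5 genes, Ythdc1 alone overlaps another annotated gene, the lincRNA Gm43055 on the same strand, which had 0 reads in the 6 libraries together. Whether the overlap took reads from the count of Ythdc1 was not tested.

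Ythdc1 (ENSMUSG00000035851, chromosome 5, 86804221 to 86836659, plus strand) had 3.81, 3.79 and 3.87 FPKM in the 3 bKO libraries, against 5.76, 6.46 and 6.18 FPKM in the 3 control libraries. The groups did not overlap, and the highest bKO library lay below the lowest control library. In reads, these were 998, 939 and 977 in bKO and 1266, 1520 and 1366 in control, with a counting error of 2.56% to 3.26% of each value. The mean was 3.82 ± 0.041 FPKM in bKO and 6.13 ± 0.35 FPKM in control (SD, n = 3 each). The bKO mean was thus 62.4% of the control mean. The spread of the bKO libraries, 1.07% of their mean, was smaller than their counting error, while that of the control libraries was 5.76%.

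On the log2(FPKM + 1) scale Ythdc1 fell by 0.56 (SE 0.058, 95% interval -0.70 to -0.43, limma with Benjamini-Hochberg adjustment, adjusted p = 0.0014), lower in 3 of 3 bKO libraries. The added pseudocount of 1 understates the change of a gene at this level, and with voom on the recovered reads the log2 fold change was -0.68. By size on the log2(FPKM + 1) scale Ythdc1 stood at rank 413 among the falls of all tested genes. That rank carries the same understatement. By p-value, which does not measure size, Ythdc1 stood at rank 329 of 15717. Groups that do not overlap, in either direction, were found for 40.1% of tested genes. The value covers all annotated exons and all islet cells, so the residual level is not the level left in beta cells.

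The free-text descriptions given for bKO replicate 2 and bKO replicate 3 name a Ythdc2 and a Ythdc3 knockout, while their genotype labels give Ythdc1. Ythdc1 was at 3.79 and 3.87 FPKM in these libraries, within 0.1 FPKM of bKO replicate 1. Ythdc2 was at 2.73 and 2.42 FPKM there, against 2.54 FPKM in bKO replicate 1, and inside the range of the control libraries. The table holds 0 genes named Ythdc3. With bKO replicate 1 as the only bKO library, assumed to vary like the controls, the log2 fold change of Ythdc1 was -0.57 and its call was lost (limma adjusted p = 0.076).

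**Figure D1:**
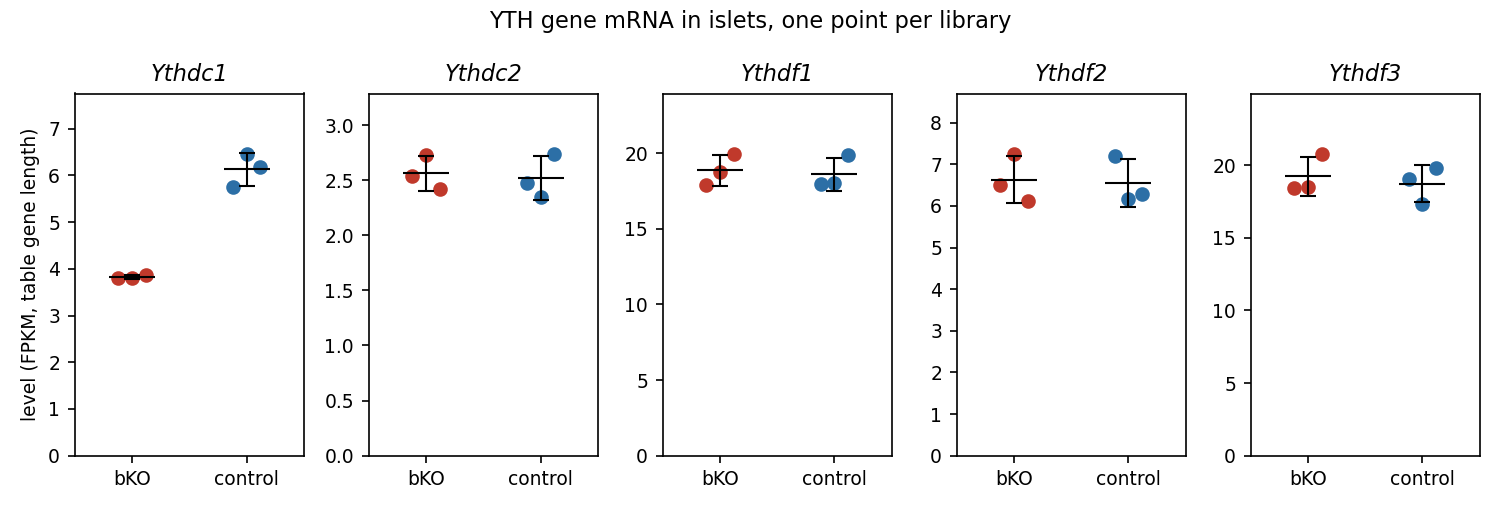
Level of each YTH gene in FPKM (y axis, from 0, a scale of its own per gene) in the 3 bKO libraries and the 3 control libraries, 1 point per library, with the mean and SD as bars. The bKO points of Ythdc1 lie at 3.79 to 3.87 FPKM, below all control points, and the groups overlap for the other genes.

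Among the cytoplasmic readers, Ythdf1, whose protein is best known for promoting translation of methylated mRNA, had 17.9, 18.8 and 19.96 FPKM in the bKO libraries and 18.0, 18.0 and 19.9 FPKM in the control libraries. The groups overlapped over nearly their whole range. The means were 18.9 ± 1.0 FPKM in bKO and 18.6 ± 1.1 FPKM in control (SD, n = 3 each). The log2 fold change was 0.018 (SE 0.059, 95% interval -0.12 to 0.16, limma adjusted p = 0.86).

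Ythdf2, the reader best known for mRNA decay, had 6.51, 7.25 and 6.13 FPKM in bKO and 7.21, 6.16 and 6.29 FPKM in control. In each group 1 library stood above 7 FPKM and the others near 6, and the groups overlapped. The means were 6.63 ± 0.57 FPKM in bKO and 6.55 ± 0.58 FPKM in control (SD, n = 3 each), with a log2 fold change of 0.015 (95% interval -0.18 to 0.21, limma adjusted p = 0.92). Its reads numbered 466 to 601 per library, a counting error of 4.08% to 4.63%, and its spread between libraries was 8.61% in bKO and 8.78% in control.

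Ythdf3, which acts with both of these proteins, had 18.4, 18.5 and 20.8 FPKM in bKO and 19.0, 17.3 and 19.8 FPKM in control. Only bKO replicate 3 was above all control libraries. The means were 19.2 ± 1.3 FPKM in bKO and 18.7 ± 1.3 FPKM in control (SD, n = 3 each), with a log2 fold change of 0.037 (95% interval -0.12 to 0.20, limma adjusted p = 0.74). It had more reads than the other 4 genes in every library, 1601 to 2060.

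Ythdc2, the helicase, was the lowest of the family, with 2.54, 2.73 and 2.42 FPKM in bKO and 2.48, 2.35 and 2.74 FPKM in control. The bKO libraries lay within the range of the control libraries. The means were 2.56 ± 0.16 FPKM in bKO and 2.52 ± 0.20 FPKM in control (SD, n = 3 each). The log2 fold change was 0.017 (95% interval -0.16 to 0.20, limma adjusted p = 0.89), from 354 to 439 reads per library.

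A p that misses the threshold does not show that the paralogs did not change, but the intervals bound how far. As a percent change of FPKM + 1, they ran from -8.13% to 11.6% for Ythdf1, from -11.4% to 15.3% for Ythdf2, from -8.25% to 14.7% for Ythdf3 and from -10.6% to 14.5% for Ythdc2. Scaling the libraries by their read totals moved the median of all tested genes from -0.01 to 0.13 on the log2 scale and the paralogs with it. They then stood at 0.19 for Ythdf1, 0.17 for Ythdf2, 0.21 for Ythdf3 and 0.14 for Ythdc2 (limma adjusted p = 0.067, 0.13, 0.069 and 0.20). With that scaling Ythdc1 was still called, at -0.42 (limma adjusted p = 0.0045). Ythdf1 and Ythdf3, at 0.186 and 0.205 after total scaling, lay above the upper limits of their intervals on the deposited scaling. These limits were 0.158 and 0.198 on the log2 scale. With acinar and hormone genes left out of the totals, the median of all tested genes was 0.036. The paralogs were then at 0.074 for Ythdf1, 0.067 for Ythdf2, 0.093 for Ythdf3 and 0.063 for Ythdc2 (limma adjusted p = 0.43, 0.60, 0.38 and 0.63).

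**Figure D2:**
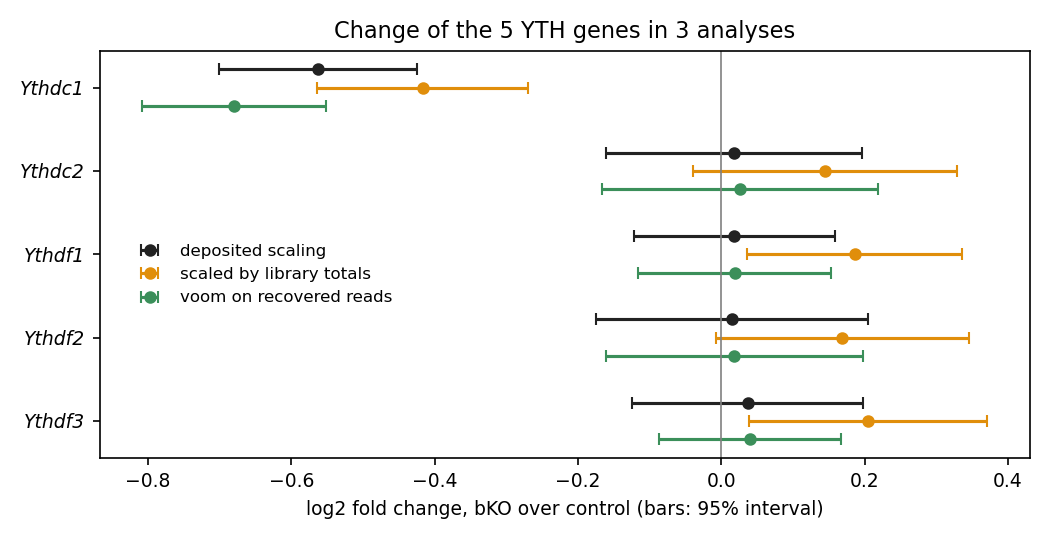
Log2 fold change of each YTH gene, bKO over control (x axis), with its 95% interval, from limma on the deposited scaling, from limma after scaling by library totals, and from voom on recovered reads. The intervals of Ythdc1 lie below 0 in all 3 analyses, those of Ythdc2 and Ythdf2 include 0 in all 3, and those of Ythdf1 and Ythdf3 lie above 0 only after scaling by totals.

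Summed over the 3 Ythdf genes, the level was 42.8, 44.5 and 46.9 FPKM in bKO and 44.2, 41.5 and 46.0 FPKM in control. These sums overlapped, with means of 44.7 ± 2.0 FPKM in bKO and 43.9 ± 2.3 FPKM in control (SD, n = 3 each). Ythdc1 made up 7.74%, 7.44% and 7.28% of the summed FPKM of the 5 genes in the bKO libraries, against 10.98%, 12.8% and 11.2% in the control libraries. Its share was therefore lower in every bKO library than in any control library. The size of the share depends on the gene length used, and per kilobase of the longest protein-coding transcript it was 24.7%, 23.9% and 23.6% in bKO and 32.6%, 36.6% and 33.2% in control.

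A ratio of 2 genes within a library does not depend on how libraries are scaled, so Ythdc1 was also set against each paralog. The ratio of Ythdc1 to Ythdf2 was 0.584, 0.523 and 0.632 in bKO and 0.799, 1.05 and 0.982 in control. The ratio to Ythdf1 was 0.213, 0.202 and 0.194 in bKO and 0.320, 0.359 and 0.311 in control. For all 4 paralogs the 3 bKO ratios lay below the 3 control ratios. As log2 ratios, bKO minus control, the differences were -0.70 for Ythdc2, -0.70 for Ythdf1, -0.70 for Ythdf2 and -0.72 for Ythdf3. Each had a two-sided exact permutation p = 0.1, which is the smallest p that 3 against 3 libraries allow, and 0.1 after adjustment over the 4 ratios. The 4 ratios share the values of Ythdc1 and are not independent.

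**Figure D3:**
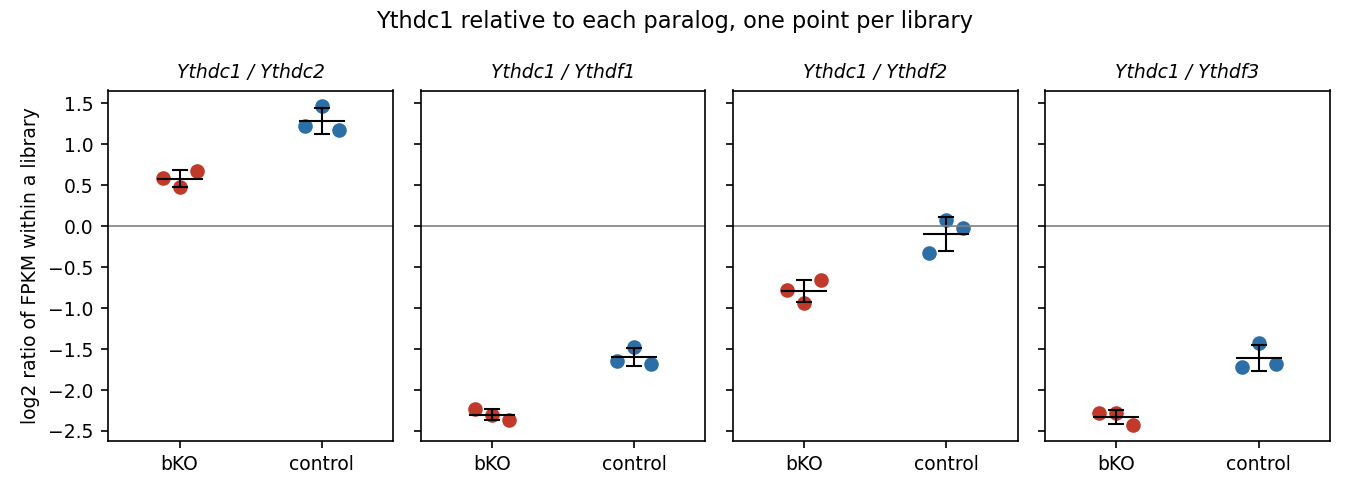
Log2 ratio of the FPKM of Ythdc1 to that of each paralog within a library (y axis), 1 point per library, with the mean and SD of the 3 bKO and the 3 control libraries. In each panel all bKO points lie below all control points.

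The order of the 5 genes by level depended on the gene length used. Per kilobase of the table's gene length, Ythdf3 and Ythdf1 were highest in both groups and did not differ beyond their spread. Ythdf2 came next. In bKO, Ythdc1 was below Ythdf2 in 3 of 3 libraries, while in control these 2 genes overlapped, at 6.13 ± 0.35 FPKM for Ythdc1 and 6.55 ± 0.58 FPKM for Ythdf2 (SD, n = 3). Ythdc2 was lowest in both groups, below Ythdc1 in 3 of 3 libraries of each. Among tested protein-coding genes of a library, Ythdf1 and Ythdf3 stood between percentiles 81.6 and 86.2 by FPKM. Ythdc1 stood between percentiles 35.6 and 36.0 in bKO and between 48.7 and 52.8 in control.

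The table's length of Ythdc1, 13651 bases, equals the union of all its exons in GENCODE vM21, as it does for the other 4 genes. Of its 9 transcripts 4 are of the retained-intron type, and the exons of its 3 protein-coding transcripts cover only 3305 bases. The table's length is 4.18 times that of the longest protein-coding transcript of Ythdc1, against 1.04 to 1.23 times for the paralogs. Per kilobase of the longest protein-coding transcript, a choice made after seeing the data, Ythdc1 was at 16.0 ± 0.17 FPKM in bKO and 25.6 ± 1.5 FPKM in control (SD, n = 3 each). This value assumes that all its reads came from a transcript of that length. On that scale Ythdc1 was the highest of the 5 genes in 3 of 3 control libraries. In 3 of 3 bKO libraries it was below Ythdf1, at 19.6 ± 1.1 FPKM, and below Ythdf3, at 20.2 ± 1.4 FPKM, and above Ythdf2, at 7.34 ± 0.63 FPKM (SD, n = 3). The ratio of the group means, 62.4%, does not depend on the length, while a fold change on the log2(FPKM + 1) scale does.

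**Figure D4:**
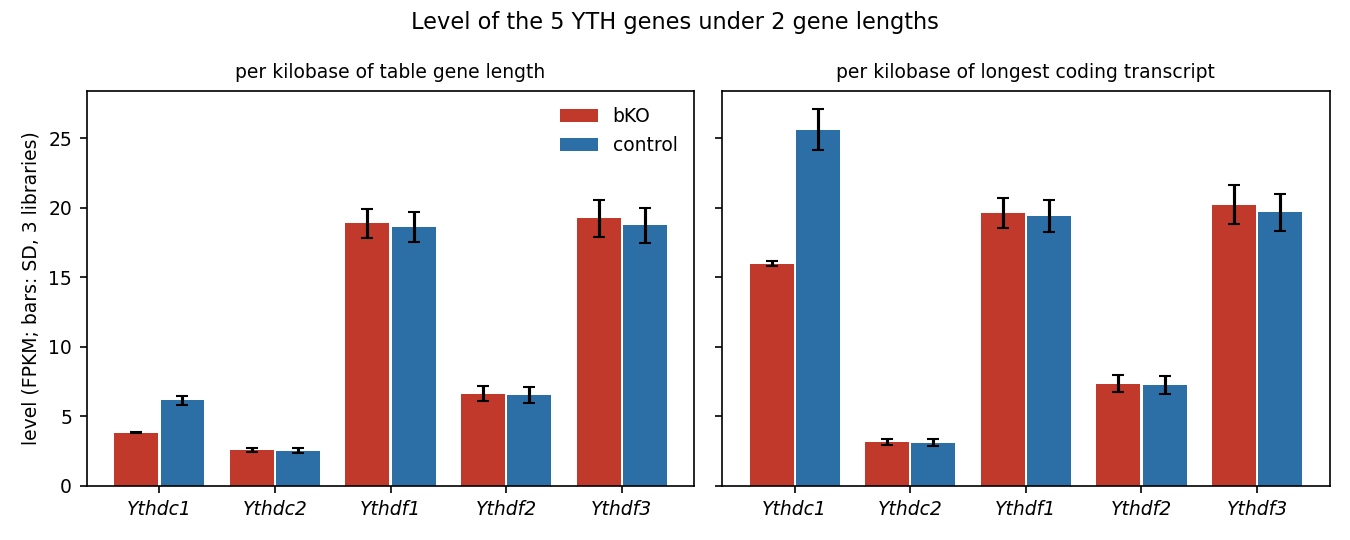
Mean level of the 5 YTH genes in bKO and control islets (y axis, FPKM, from 0), with SD over 3 libraries, per kilobase of the table's gene length on the left and of the longest protein-coding transcript on the right. With the shorter length Ythdc1 moves to 16.0 FPKM in bKO and 25.6 FPKM in control, and the other genes move little.

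The genes whose pattern over the 6 libraries came nearest to that of Ythdc1 were sought among 6841 protein-coding genes with a mean of at least 5 FPKM. The measure was the root mean square difference of log2(FPKM + 1) after each gene's mean was subtracted. The pseudocount shrinks the change of Ythdc1 more than that of genes at higher levels. Whether other genes would be nearest without it was not tested. Emilin1, which codes for an extracellular matrix glycoprotein, was nearest at 0.023, followed by the chaperonin subunit gene Cct5 at 0.031 and the glucuronosyltransferase gene Ugt2b34 at 0.036. Emilin1 was at 28.4 ± 0.60 FPKM in bKO and 42.3 ± 1.9 FPKM in control, Cct5 at 40.9 ± 1.2 FPKM in bKO and 59.7 ± 2.2 FPKM in control, and Ugt2b34 at 15.1 ± 0.53 FPKM in bKO and 22.4 ± 0.996 FPKM in control (SD, n = 3 each). With 11.4% of tested genes called lower, many genes share a pattern that is set by the 2 groups.

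The other genes of the pathway were read from lists chosen for their known roles, with earlier results of these data in view. Of the 11 genes called in them, 0 were called with bKO replicate 1 as the only bKO library, where 114 genes were called higher and 113 lower in the whole table. After total scaling 23.4% of all tested genes were called higher and 4.69% lower, against 8.96% and 11.4% on the deposited scaling, so the counts of a list are given on both. With acinar and hormone genes left out of the totals, 1828 of all tested genes were called higher and 1279 lower. Of 14 m6A writers and erasers, 1 was higher and 1 lower in bKO, with a median log2 fold change of 0.0097, against -0.012 over all tested genes. After total scaling 6 were higher and 0 lower. These were Rbm15, Virma, Rbm15b, Cbll1, Pcif1 and Alkbh5, all but Rbm15 named after their values were seen. With acinar and hormone genes left out of the totals, only Rbm15 and Virma of these kept their calls. Rbm15, an adaptor of the methyltransferase, had 5.72, 5.95 and 6.38 FPKM in bKO and 4.63, 4.31 and 4.50 FPKM in control (log2 fold change 0.36, limma adjusted p = 0.0080). Wtap, the regulatory subunit of the writer complex, had 8.61, 8.57 and 8.72 FPKM in bKO and 10.8, 10.5 and 11.4 FPKM in control (-0.30, limma adjusted p = 0.0059), and its call was lost with total scaling (-0.14, limma adjusted p = 0.076). Neither gene's groups overlapped, which held for 40.1% of all tested genes in either direction. The catalytic subunit gene Mettl3 was at 3.85 ± 0.13 FPKM in bKO and 3.80 ± 0.36 FPKM in control (SD, n = 3 each).

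Of 9 tested other m6A-linked binding proteins, 0 were higher and 2 lower, with a median of -0.12. The 2 of 9 called stand beside 20.3% of all tested genes called in either direction. After total scaling 1 was higher, Rbmx (0.23, limma adjusted p = 0.033, named after its values were seen), and 1 lower, Hnrnpc (-0.17, limma adjusted p = 0.024). The call of Rbmx was lost with acinar and hormone genes left out of the totals. Hnrnpc, a nuclear ribonucleoprotein whose access to RNA can depend on m6A, had 33.0, 32.7 and 32.4 FPKM in bKO and 41.8, 40.5 and 43.0 FPKM in control (-0.34, limma adjusted p = 0.0017). Hnrnpa2b1, a nuclear RNA-binding protein, was at 73.8 ± 1.2 FPKM in bKO and 80.7 ± 1.7 FPKM in control (SD, n = 3 each). It fell by 0.13 on the log2 scale (limma adjusted p = 0.041), was at 0.046 with total scaling, and lost its call when any 1 library was left out. Igf2bp1 and Igf2bp3, of another reader family, did not pass the filter and stayed at or under 0.21 FPKM in every library.

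Of 13 genes linked to YTHDC1 in splicing, 3' end processing, export and chromatin, 3 were higher and 3 lower in bKO, with a median of -0.070. The background was 8.96% of all tested genes called higher and 11.4% called lower. After total scaling 4 were higher and 1 lower, with Srsf7 the lower and Cpsf6, named after its values were seen, the added higher one (0.23, limma adjusted p = 0.035). The call of Cpsf6 was lost with acinar and hormone genes left out of the totals. The list holds 3 chromatin genes. Setdb1, a histone methyltransferase, had 8.99, 8.97 and 9.02 FPKM in bKO and 6.62, 6.66 and 6.25 FPKM in control (0.41, limma adjusted p = 0.0020). Kdm3b, a histone demethylase recruited by YTHDC1, had 7.40, 6.81 and 7.40 FPKM in bKO and 5.24, 4.94 and 4.97 FPKM in control (0.44, limma adjusted p = 0.0029). The groups of both genes were apart, with every bKO library above every control library, which held for 18.5% of all tested genes. Trim28, a corepressor that recruits SETDB1, was at 28.2 ± 0.84 FPKM in bKO and 31.5 ± 1.7 FPKM in control (SD, n = 3 each, log2 fold change -0.15, limma adjusted p = 0.072, and 0.017 on the log2 scale after total scaling). Of the splicing factor genes, Srsf7 fell to 57.5 ± 1.7 FPKM in bKO, against 72.9 ± 1.5 FPKM in control (SD, n = 3 each, log2 fold change -0.34, limma adjusted p = 0.0019). Srsf3, which binds YTHDC1, fell by 0.20 (limma adjusted p = 0.020), and its call was lost with total scaling (-0.029, limma adjusted p = 0.69) and without bKO replicate 2 or 3 or control replicate 2. Safb, a scaffold attachment factor, fell by 0.18 (limma adjusted p = 0.045), and its call was lost with total scaling (-0.0094, limma adjusted p = 0.91) and without any 1 library except bKO replicate 1. Srsf1, the remaining gene that rose (0.13, limma adjusted p = 0.049), is named to complete the list, and its call held without control replicate 3 but not without any other library.

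The counts for partners of the cytoplasmic readers depended on the scaling. They stand beside 8.96% of all tested genes called higher and 11.4% called lower on the deposited scaling. Of 11 subunits of CCR4-NOT, 0 were higher and 0 lower by limma's adjusted p, with a median of -0.012 against -0.012 over all tested genes. At an unadjusted p under 0.05 there was 1, and voom on recovered reads called 1, in both cases Cnot8, named after its values were seen. This catalytic subunit gene was at 21.6 ± 1.3 FPKM in bKO and 26.5 ± 4.2 FPKM in control (SD, n = 3 each, log2 fold change -0.28, limma adjusted p = 0.11). After total scaling, where 23.4% of all tested genes were called higher and 4.69% lower, 5 subunits were higher and 0 lower. These were Cnot3, Cnot7, Cnot9, Cnot10 and Cnot11, with log2 fold changes of 0.17, 0.24, 0.23, 0.22 and 0.28. Their calls were lost with acinar and hormone genes left out of the totals. Cnot1, the scaffold that YTHDF2 binds, was at 11.4 ± 0.12 FPKM in bKO and 12.1 ± 0.29 FPKM in control (SD, n = 3 each, log2 fold change -0.078, limma adjusted p = 0.23). Of 10 other decay partners of YTHDF2, 0 were higher and 1 lower, with a median of -0.031, and after total scaling 0 were higher and 0 lower. This was Rpp38, a subunit of the ribonuclease P complex, at 5.92 ± 0.50 FPKM in bKO and 7.63 ± 0.46 FPKM in control (SD, n = 3 each, log2 fold change -0.32, limma adjusted p = 0.025), and its call was lost with total scaling (-0.17), with voom and without bKO replicate 1 or 2 or control replicate 1 or 2. Of 3 partners of YTHDC2 only the exonuclease gene Xrn1 was tested, at 4.20 ± 0.10 FPKM in bKO and 4.42 ± 0.018 FPKM in control (SD, n = 3 each, log2 fold change -0.061, limma adjusted p = 0.45). The meiotic partner genes Meioc and Rbm46 were at or under 0.146 FPKM in every library.

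**Figure D5:**
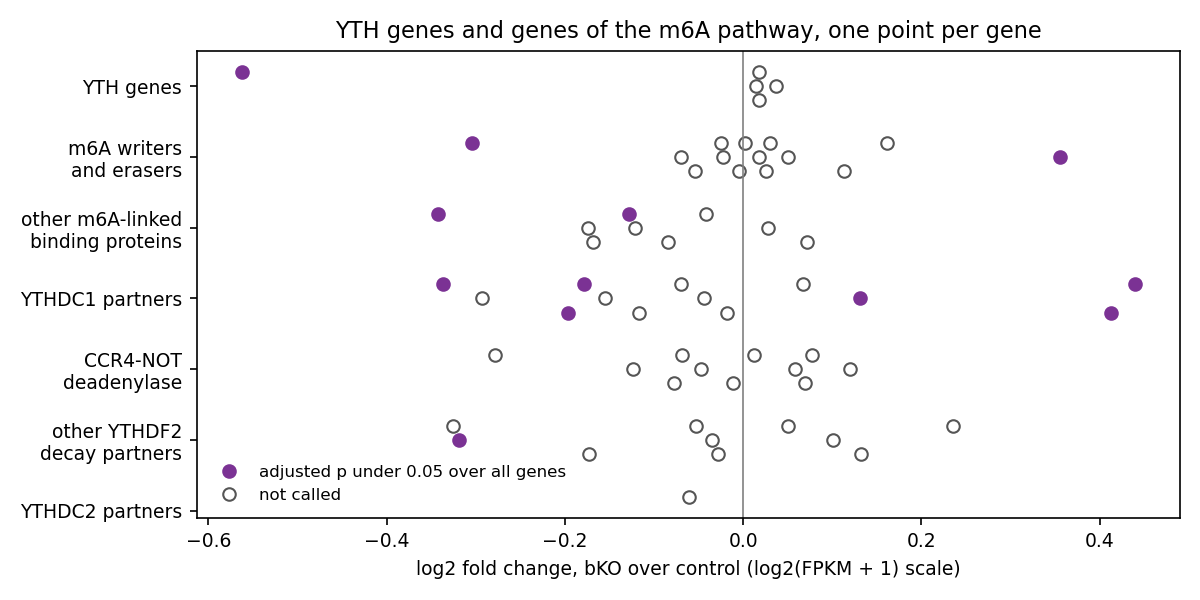
Log2 fold change, bKO over control (x axis), of the tested genes of each list, 1 point per gene, filled where the limma adjusted p over all genes was under 0.05. Ythdc1 stands alone at -0.56 while its 4 paralogs lie between 0.015 and 0.037, and the list of YTHDC1 partners holds filled points on both sides of 0.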

How the data were processed

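The authors deposited FPKM per gene, with gene lengths. Per the labels, HISAT2 2.0.5 aligned the reads to GRCm38 and featureCounts 1.5.0-p3 counted them. DESeq2 1.20.0 and CASAVA are named, with no role, in the submitters' processing notes. Strand setting, multi-match handling and annotation release are not given in the sources used here.

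Each deposited value above 0, times gene length and a factor per library, gave a whole read within 0.01 (100% of values). The factors followed median-of-ratios size factors. Errors from reads cover counting only. The table held 0 columns of other samples, and libraries of 1 group differed beyond sampling noise (chi-square per degree of freedom 4.09 to 6.50).

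Groups follow the genotype labels. limma 3.58.1 in R 4.3.3, with a mean-variance trend, was fitted to log2(FPKM + 1), bKO against control, over 15717 genes with at least 0.5 FPKM in at least 3 libraries, after being tested on simulated data. P-values were adjusted by Benjamini-Hochberg over all tested genes, with a threshold of 0.05. Coding sequences from GENCODE vM21 (GRCm38) were aligned with Biopython 1.88. Python 3.11.15, scipy 1.17.1, numpy 2.4.6, matplotlib 3.10.9 and pandas 2.3.3 served the remaining steps. Members and lists were chosen with earlier results of these data known. Named genes are the 5 members, genes overlapping them, the 3 nearest in pattern to Ythdc1, and up to 5 called members per list by adjusted p. Other list members were named after their values were seen. Alternatives were other scalings, pseudocounts, filters, voom, a replicate block, and leaving out libraries.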

Additional observations from a re-analysis of the deposited data

How the results depend on the processing

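The fall of Ythdc1 kept its direction in all 16 alternatives and its call in 15 of them, with log2 fold changes of -0.68 to -0.42. The exception left out bKO replicates 2 and 3 (-0.57, limma adjusted p = 0.076) and has fewer samples by construction. With 1 library left out it was at -0.60 to -0.53. The direction was fixed beforehand where libraries were left out or the pseudocount changed, because all bKO libraries lay below all control libraries. The other filters and the replicate block return the same log2 fold change by construction. No paralog was called in any alternative. Their small values changed sign in some, to -0.036 for Ythdc2 with quantile normalization, and without bKO replicates 2 and 3 to -0.054 for Ythdf1, -0.0047 for Ythdf2 and -0.020 for Ythdf3. With 1 library left out they ran from -0.018 to 0.062 for Ythdc2, -0.021 to 0.063 for Ythdf1, -0.043 to 0.077 for Ythdf2 and -0.017 to 0.077 for Ythdf3.

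With 1 library left out, the differences in the log2 ratios of Ythdc1 to its paralogs ran from -0.76 to -0.62 (Ythdc2), -0.74 to -0.64 (Ythdf1), -0.81 to -0.62 (Ythdf2) and -0.78 to -0.63 (Ythdf3). Their negative sign was fixed beforehand, because all bKO ratios lay below all control ratios. The replicate block returns the same differences by construction. With 0.5 read added to each gene they were also negative. The log2 sum of the 3 Ythdf genes differed by 0.027, by 0.20 with total scaling, and by -0.013 to 0.062 with 1 library left out.

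Of all tested genes, 1408 were called higher and 1784 lower. Total scaling gave 3684 and 737, a share of 83.3% higher against 44.1%. With acinar and hormone genes left out of the totals it gave 1828 and 1279, a share of 58.8% higher. Leaving out bKO replicates 2 and 3 gave 114 and 113, and leaving out 1 library 852 to 1179 and 1037 to 1604. Replicate numbers did not pair the libraries (correlations of same-numbered deviations -0.052, -0.014 and -0.073). The replicate block gave 925 and 1152 calls and Ythdc1 at -0.56 (limma adjusted p = 0.013). Of the 11 called pathway genes, 0 were called without bKO replicates 2 and 3. The cause of other lost calls was not tested.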

Other observations

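Ugt2b34, the third nearest gene to Ythdc1 in pattern, also lies beside it, 53.1 kb away on chromosome 5 (86889767 to 86906937, minus strand, GRCm38). It had 14.8, 15.7 and 14.8 FPKM in bKO and 21.3, 23.2 and 22.6 FPKM in control (log2 fold change -0.54, limma adjusted p = 9.0e-04), and the groups did not overlap. As Ugt2b34 was picked for its nearness to Ythdc1 in pattern, its fall and the gap between groups followed from that choice. Groups that do not overlap were found for 40.1% of tested genes. Within 500 kb of Ythdc1, a window set after seeing this gene, 2 genes passed the filter. The other, the processed pseudogene Gm5869, had 0.704, 0.702 and 0.301 FPKM in bKO and 0.395, 1.02 and 0.687 FPKM in control (limma adjusted p = 0.71).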
